A study of Brassica napus with 9 samples.

Results

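The genes described here are BnaUnng05060D, BnaA04g12350D and BnaAnng35580D of rapeseed (Brassica napus), which the study annotates as similar to AT2G21660 of Arabidopsis thaliana, named cold, circadian rhythm, and RNA binding 2 (CCR2). They are 3 of the 91830 genes in the deposited count table, and they were taken by their identifiers. They come from the study's list of the 20 strongest differences between CpFatB4 plants and Youngsan at 8 days after flowering (DAF), so that difference chose them and is given as a description with no test. The annotation by sequence similarity is the only identity used here, and positions of the genes in the genome were not used.

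Whole pods, pod wall and developing seeds together, were sampled from greenhouse plants of 3 lines at 8, 25 and 45 DAF. The CpFatB4 and CpFatB5 lines were homozygous T4 plants that expressed an acyl-ACP thioesterase of Cuphea paucipetala from a Napin promoter, which is active in seeds, and the control was the nontransgenic cultivar Youngsan from which both lines were made. RNA of 3 preparations was pooled for each library, so each line and stage had 1 library and a difference between lines had no replicate check. The labels count the stages as days after fertilization. The hour at which pods were harvested is not given in the sources used here. In whole pods, fewer cells of a type and less RNA per cell cannot be told apart.

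In Arabidopsis, CCR2 is the glycine-rich RNA-binding protein GRP7. Its transcript cycles under the circadian clock with a peak toward evening and accumulates in the cold, and the protein binds its own pre-mRNA and favours a splice form that is degraded. It acts in the same way on its close relative CCR1 (GRP8, AT4G39260), so both proteins form a feedback loop driven by the clock. LHY (AT1G01060) is a transcription factor of the clock core that peaks near dawn.

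The 9 libraries held between 38677752 counts in CpFatB5 at 45 DAF and 88259440 in Youngsan at 25 DAF, summed over the 2 count columns of each library. Values below are normalized counts, that is raw counts divided by the size factor of the library and averaged over its 2 columns. The columns of a library differed by at most 0.15 on the log2 scale for any of the 3 genes. The fewest raw counts of a CCR2-like gene in a column were 230, for BnaUnng05060D in Youngsan at 8 DAF. At 45 DAF the 20 most abundant genes took 38.7% of all counts in CpFatB4, 18.1% in CpFatB5 and 9.15% in Youngsan, and their part in the 45 DAF values was not tested.

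At 8 DAF all 3 genes had their highest counts in CpFatB4, intermediate counts in CpFatB5 and their lowest in Youngsan. BnaUnng05060D had 1534 normalized counts in CpFatB4 and 629 in CpFatB5, against 175 in Youngsan. BnaA04g12350D had 1798 in CpFatB4 and 724 in CpFatB5, against 213 in Youngsan. BnaAnng35580D had 2456 in CpFatB4 and 1047 in CpFatB5, against 301 in Youngsan. The order of the lines was thus the same for each gene, and the Youngsan library was the low one each time.

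Between CpFatB4 and Youngsan at 8 DAF the log2 fold change was 3.13 for BnaUnng05060D (95% interval 2.94 to 3.33), 3.08 for BnaA04g12350D (2.90 to 3.26) and 3.03 for BnaAnng35580D (2.88 to 3.18). These intervals cover counting error only and overlap each other. BnaA04g12350D and BnaAnng35580D had a mean of at least 1000 normalized counts over both libraries, the minimum for a differentially expressed gene (DEG) used here together with a log2 fold change of at least 1 or at most -1. Of the 5260 genes past that minimum, 2.45% were higher in CpFatB4 by this rule, and both genes were among them, in places 2 and 3 from the top. BnaUnng05060D, with a lower mean, was not ranked. The study states its minimum as an average without giving how libraries and columns enter it, so other readings were tried after the values were seen. All 3 genes passed and were DEGs with the minimum set on the higher library, where 2.92% of genes were higher in CpFatB4, and with the columns of a library summed, where 1.96% were. Under each reading the genes passed only through their CpFatB4 counts, as none had more than 301 in Youngsan. The library that let them pass is thus the one where they were high, and these calls are a description. Over all genes past the minimum the median was -0.02.

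Between CpFatB5 and Youngsan at 8 DAF the log2 fold change was 1.85 for BnaUnng05060D (95% interval 1.63 to 2.07), 1.77 for BnaA04g12350D (1.57 to 1.97) and 1.80 for BnaAnng35580D (1.63 to 1.96). This comparison uses the same Youngsan library as the one that chose the genes. None of the 3 genes reached a mean of 1000 in it, so 0 of 3 was a DEG under this reading of the minimum, where 2.15% of the genes past the minimum were higher. BnaAnng35580D passed and was a DEG with the minimum set on the higher library, where 2.62% of genes were higher in CpFatB5, and with the columns summed, where 1.59% were. That gene passed only through its CpFatB5 count, the higher of the 2, so this call is also a description. With a minimum of 200 normalized counts, which all 3 passed, 1.44% of genes were higher by at least 2-fold. BnaUnng05060D passed it only through its CpFatB5 count, as it had 175 in Youngsan.

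The transgenic lines also differed from each other at 8 DAF. CpFatB5 was below CpFatB4 with log2 fold changes of -1.29, -1.31 and -1.23 for BnaUnng05060D, BnaA04g12350D and BnaAnng35580D, which corresponds to 0.410, 0.403 and 0.426 of the CpFatB4 value. All 3 genes passed the minimum and were DEGs, where 0.172% of 5219 genes were lower in CpFatB5 by this rule. They were 3 of the 9 genes that were, and BnaC08g49360D, described below, was another, with -1.25. The 4 CCR1-like genes described below had -0.98 to -0.82, short of 2-fold. BnaUnng05060D and BnaA04g12350D passed the minimum only through CpFatB4, as they had 629 and 724 in CpFatB5. The CpFatB4 library of this comparison is one of the libraries that chose the genes, so the count of 3 among 9 is a description. The range over the 3 lines at 8 DAF was between 3.03 and 3.13 on the log2 scale for the 3 genes, against a median of 0.35 over 5275 genes. That range is the difference between CpFatB4 and Youngsan that chose the genes, so it is a description too. BnaUnng05060D and BnaA04g12350D fell short of the minimum over the 3 lines and are not among the 5275 genes.

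**Figure D1:**
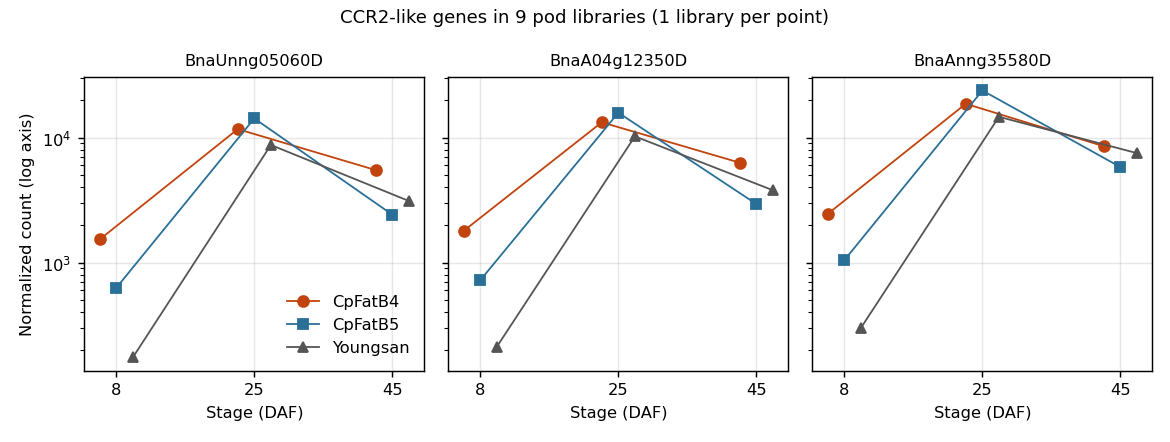
Normalized counts (log axis) of the 3 CCR2-like genes against the stage in DAF, with 1 point per library and lines joining the libraries of CpFatB4, CpFatB5 and Youngsan. At 8 DAF the lines stand apart in the order CpFatB4, CpFatB5, Youngsan, and at 25 DAF every line is at its highest.

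At 25 DAF every CCR2-like gene had its highest count of the 3 stages in every line, and the lines lay closer together than at 8 DAF. BnaUnng05060D had 11704 normalized counts in CpFatB4 and 14249 in CpFatB5, against 8740 in Youngsan. BnaA04g12350D had 13266 in CpFatB4 and 15838 in CpFatB5, against 10241 in Youngsan. BnaAnng35580D had 18659 in CpFatB4 and 23836 in CpFatB5, against 14678 in Youngsan. CpFatB5 was now the high library, and Youngsan was again the low one. The range over the 3 lines was between 0.63 and 0.71 on the log2 scale, against a median of 0.22 over 6409 genes, and 95.4% to 96.3% of those genes had a smaller range.

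The log2 fold changes at 25 DAF were 0.42, 0.37 and 0.35 between CpFatB4 and Youngsan for BnaUnng05060D, BnaA04g12350D and BnaAnng35580D. Between CpFatB5 and Youngsan they were 0.71, 0.63 and 0.70, and both comparisons share the Youngsan library. No member reached 2-fold, where 0.278% of genes were higher by that much in CpFatB4 and 0.0784% in CpFatB5. Of 6380 genes past the minimum, 99.2%, 98.9% and 99.1% had a lower log2 fold change in CpFatB5 against Youngsan than BnaUnng05060D, BnaA04g12350D and BnaAnng35580D, with a median of -0.07 over all of them. Between CpFatB5 and CpFatB4 the log2 fold changes were 0.28, 0.26 and 0.35, with 0 of 3 called where 0.109% of genes were higher in CpFatB5.

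The step between the first stages was shared by the 3 lines. It was tested with limma over 73401 genes, with the lines as blocks, so that its error is the spread of 3 lines around a common stage effect and not that of repeated samples of a line. At 25 against 8 DAF the log2 fold change was 4.39 ± 0.50 for BnaUnng05060D (SE; limma, Benjamini-Hochberg adjusted p = 0.000194), 4.34 ± 0.50 for BnaA04g12350D (adjusted p = 0.000194) and 4.38 ± 0.52 for BnaAnng35580D (adjusted p = 0.000234). All 3 genes rose, where 20.8% of all genes tested rose and 21.2% fell. All 3 also passed with any 1 line left out. The CpFatB4 and Youngsan libraries at 8 DAF, which chose the genes, enter this test.

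The size of that step differed between the lines. In CpFatB4 the log2 fold changes were 2.93, 2.88 and 2.93 for BnaUnng05060D, BnaA04g12350D and BnaAnng35580D, and in CpFatB5 they were 4.50, 4.45 and 4.51. In Youngsan they were 5.64, 5.59 and 5.61, that is 50.0, 48.1 and 48.8 times the count at 8 DAF. The genes past the minimum had medians of 0.28, 0.22 and 0.33 in CpFatB4, CpFatB5 and Youngsan, and 21.2%, 18.6% and 19.2% of them were higher at 25 DAF by at least 2-fold. The difference between the steps is the line difference at 8 DAF seen from the other side, since the lines were nearer to each other at 25 DAF, and with 1 library per line and stage it was not tested.

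**Figure D2:**
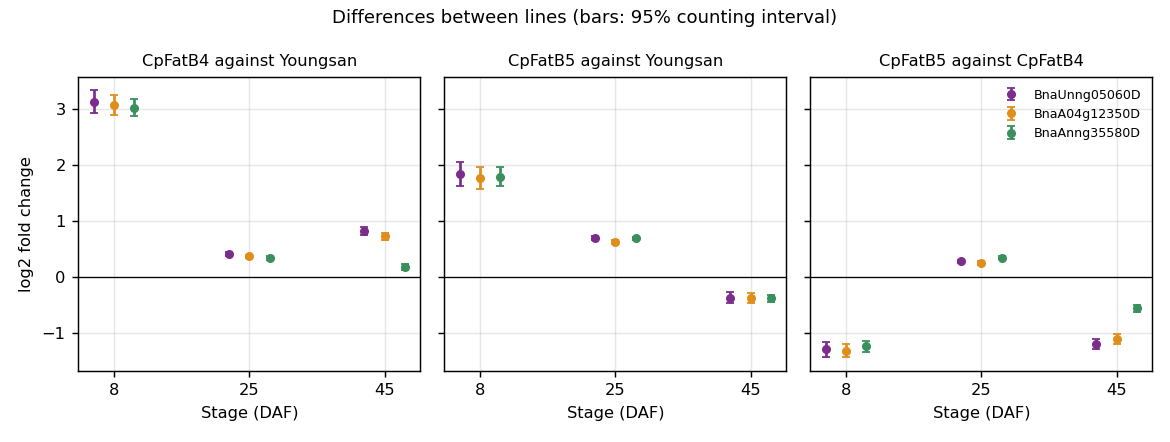
Log2 fold changes of the 3 CCR2-like genes for CpFatB4 against Youngsan, CpFatB5 against Youngsan and CpFatB5 against CpFatB4 at 8, 25 and 45 DAF, with bars for the 95% counting interval of 1 library against 1 library. The values near 3 at 8 DAF in CpFatB4 stand apart from the values under 1 at 25 DAF, and at 45 DAF BnaAnng35580D leaves the other genes, although the position of the zero line at 45 DAF moves with the scaling.

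At 45 DAF the counts lay between those of the earlier stages in every line. BnaUnng05060D had 5502 normalized counts in CpFatB4 and 2420 in CpFatB5, against 3115 in Youngsan. BnaA04g12350D had 6302 in CpFatB4 and 2943 in CpFatB5, against 3794 in Youngsan. BnaAnng35580D had 8531 in CpFatB4 and 5816 in CpFatB5, against 7518 in Youngsan. CpFatB4 was again the high library, and CpFatB5 was the low one for each gene.

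Between CpFatB4 and Youngsan at 45 DAF the log2 fold change was 0.82 for BnaUnng05060D (95% interval 0.75 to 0.89) and 0.73 for BnaA04g12350D (0.67 to 0.80). For BnaAnng35580D it was 0.18 (0.13 to 0.24), and it was -0.31 when libraries were scaled by their total counts. The median of the 6459 genes past the minimum was -0.26, and 0 of 3 genes was called where 7.57% of genes were higher in CpFatB4. Between CpFatB5 and Youngsan the values were -0.36, -0.37 and -0.37 for BnaUnng05060D, BnaA04g12350D and BnaAnng35580D, near the median of -0.45 over 6107 genes. Their sign depends on the scaling, since size factors from abundant genes alone gave 0.10, 0.10 and 0.09. None of the 3 was called in that comparison, where 12.8% of genes were lower in CpFatB5.

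Between CpFatB5 and CpFatB4 at 45 DAF the log2 fold changes were -1.19, -1.10 and -0.55 for BnaUnng05060D, BnaA04g12350D and BnaAnng35580D. By the DEG rule 2 of 3 were lower in CpFatB5, where 18.5% of 5596 genes were. Under total count scaling the values were -0.64, -0.56 and -0.01, and no gene reached 2-fold.

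From 25 to 45 DAF BnaUnng05060D fell, with a log2 fold change of -1.72 ± 0.51 (SE; limma, adjusted p = 0.0218), and so did BnaA04g12350D, with -1.65 ± 0.50 (adjusted p = 0.0247). BnaAnng35580D had -1.37 ± 0.53 (limma, adjusted p = 0.0582) and did not pass. Of all genes tested, 29.2% fell and 17.9% rose between these stages. Without the CpFatB5 libraries 0 of 3 genes passed, at a median of -1.24 (limma, largest adjusted p = 0.305), and 0 of 3 passed with all libraries but no block for the line, at a median of -1.64 (largest adjusted p = 0.0956). Without CpFatB4 all 3 passed at a median of -1.94.

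By line, the log2 fold changes at 45 against 25 DAF were -1.09, -1.07 and -1.13 in CpFatB4 for BnaUnng05060D, BnaA04g12350D and BnaAnng35580D. In CpFatB5 they were -2.56, -2.43 and -2.04, and in Youngsan -1.49, -1.43 and -0.97. By the DEG rule all 3 genes were lower at 45 DAF in CpFatB4, where 15.5% of genes were, and all 3 in CpFatB5, where 32.8% were. The calls in CpFatB4 depended on the processing. With size factors from abundant genes alone the CpFatB4 values were -0.83, -0.82 and -0.87 in the same order of genes. With 1 subtracted from every count they were -0.88, -0.87 and -0.92, so no gene reached 2-fold under either setting. In Youngsan 2 of 3 were lower, where 21.1% of genes were, and BnaAnng35580D was just short of 2-fold.

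The profiles of the 3 genes parted most at 45 DAF. Deviations from the mean log2 count of the 3 genes were taken within a library, and the average deviation of each gene over the 9 libraries was removed, so they do not depend on how libraries were scaled. They were at most 0.11 in size for every gene in the libraries of 8 and 25 DAF. At 45 DAF BnaAnng35580D deviated by -0.13 in CpFatB4 and by 0.27 in CpFatB5, against 0.27 in Youngsan. It was therefore high relative to the other CCR2-like genes in CpFatB5 and Youngsan, and on the opposite side in CpFatB4. BnaUnng05060D deviated by 0.08 in CpFatB4 and by -0.16 in CpFatB5, against -0.16 in Youngsan, and BnaA04g12350D by 0.05 and -0.11, against -0.11.

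**Figure D3:**
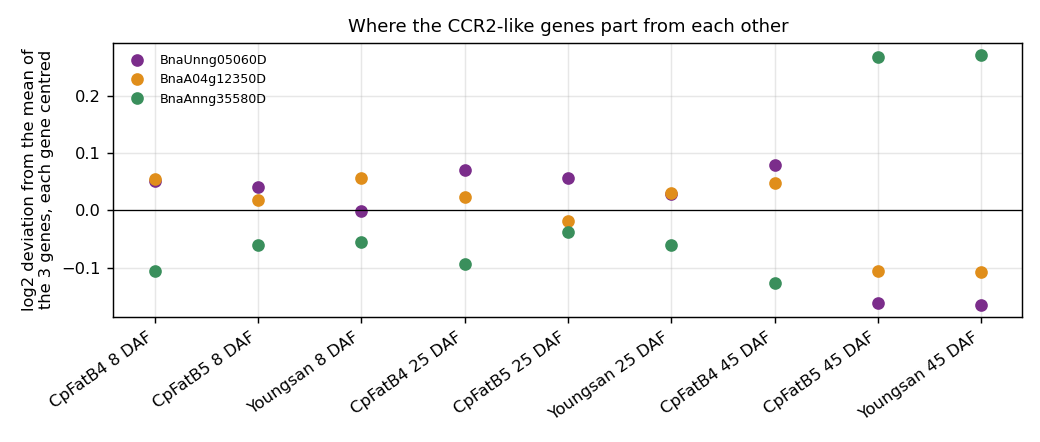
Log2 deviation of each CCR2-like gene from the mean of the 3 genes in the same library, less the average deviation of that gene over all libraries, for the 9 libraries in order of stage. BnaAnng35580D is at 0.27 in CpFatB5 and in Youngsan at 45 DAF and at -0.13 in CpFatB4 at 45 DAF, and all points of 8 and 25 DAF are within 0.11 of 0.

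Over the 9 libraries the log2 counts of BnaUnng05060D and BnaA04g12350D had a Pearson correlation of 0.9998, and BnaAnng35580D correlated with them at 0.993 and 0.995. These values describe 9 libraries that share the large step between 8 and 25 DAF. How reads that match several coding sequences were assigned is not given in the sources used here. In every library except CpFatB5 at 45 DAF, the first count column alone held more counts than the clean reads that the study lists for it. A read can thus have been counted at more than 1 gene. The likeness of near-identical genes to each other is therefore not independent evidence. No other gene had counts identical to those of a CCR2-like gene in all columns, and all values of single CCR2-like genes are uncertain in this respect.

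A further gene, BnaC08g49360D, was close to the 3 members. The study's list prints an identifier for a gene similar to AT2G21660 that lacks a digit, and BnaC08g49360D is the 1 gene in the table whose identifier starts that way. It had 2712 normalized counts in CpFatB4 at 8 DAF and 1143 in CpFatB5, against 281 in Youngsan, with log2 fold changes of 3.27 and 2.02. At 25 DAF it had 17870 in CpFatB4 and 21999 in CpFatB5, against 14418 in Youngsan, and at 45 DAF 8253 and 4948, against 6554. Its order of lines was that of the CCR2-like genes at each stage in the main scaling. At 45 DAF the order of the CCR2-like genes themselves depended on the scaling, as given above.

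The 4 genes that the study pairs with CCR1 are on the same list, BnaA08g16610D, BnaC03g60490D, BnaA01g05410D and BnaC01g00280D. They were chosen on the same libraries, so their agreement in direction at 8 DAF is not independent evidence. Their log2 fold changes at 8 DAF were between 2.26 and 2.60 in CpFatB4 against Youngsan and between 1.44 and 1.63 in CpFatB5 against Youngsan. The CCR2-like genes had larger values in both comparisons, and the highest CCR1-like value was under the lowest CCR2-like value in each. BnaC03g60490D, for example, had 1954 normalized counts in CpFatB4 and 999 in CpFatB5, against 357 in Youngsan.

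All 4 CCR1-like genes rose at 25 against 8 DAF, by 2.41 to 2.77 on the log2 scale (limma, adjusted p between 0.000861 and 0.00316). Of all genes tested, 20.8% rose at that step. The CpFatB4 and Youngsan libraries at 8 DAF, on which the CCR1-like genes were chosen, enter this test. From 25 to 45 DAF 2 of 4 fell, BnaA01g05410D (-1.26, limma, adjusted p = 0.0339) and BnaC01g00280D (-1.25, adjusted p = 0.0379), where 29.2% of all genes tested fell. The values of BnaA08g16610D and BnaC03g60490D were -1.23 and -1.20 (limma, adjusted p = 0.0531 and 0.0511). At 25 DAF the genes spread more than the CCR2-like genes did in CpFatB5 against Youngsan, where BnaC01g00280D had a log2 fold change of 1.08 and BnaA08g16610D 0.33.

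The LHY-like genes BnaC05g00840D and BnaA10g00780D ran the other way at 8 DAF. BnaC05g00840D had 347 normalized counts in CpFatB4 and 361 in CpFatB5, against 2352 in Youngsan, and BnaA10g00780D had 347 and 363, against 2352. Youngsan was here the high library, and the transgenic lines were level with each other, unlike for the CCR2-like genes. The log2 fold changes were -2.76 in CpFatB4 and -2.70 in CpFatB5 for both genes, and between CpFatB5 and CpFatB4 they were 0.06 for both. The study chose these genes on the same 8 DAF libraries.

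At 25 DAF both LHY-like genes had between 42.2 and 47.9 normalized counts in all 3 lines, and at 45 DAF between 17.4 and 36.4. Both fell at 25 against 8 DAF, with log2 fold changes of -3.92 for BnaC05g00840D (limma, adjusted p = 0.000606) and -4.05 for BnaA10g00780D (adjusted p = 0.000443). Of all genes tested, 21.2% fell at that step. The CpFatB4 and Youngsan libraries at 8 DAF, on which the LHY-like genes were chosen, enter this test, so it is not independent of that choice. In each line the CCR2-like genes thus were at their lowest in the library in which the LHY-like genes were at their highest, that of 8 DAF. The opposite course did not extend to 45 DAF, where both had lower counts than at 25 DAF in each line. For the LHY-like genes that later step did not pass (limma, adjusted p = 0.351 and 0.311).

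The genes similar to AT3G12320, BnaC03g37520D and BnaA03g32230D, followed the LHY-like genes at 8 DAF. BnaC03g37520D had 182 normalized counts in CpFatB4 and 221 in CpFatB5, against 1095 in Youngsan. BnaA03g32230D had 191 in CpFatB4 and 229 in CpFatB5, against 1121 in Youngsan. Both fell at 25 against 8 DAF, by 3.02 and 3.09 on the log2 scale (limma, adjusted p = 0.00461 and 0.00319), where 21.2% of all genes tested fell. They too were chosen on 8 DAF libraries that enter this test. At 45 DAF BnaC03g37520D had 19.1 in CpFatB4 and 142 in CpFatB5, against 99.6 in Youngsan, with CpFatB4 now the low library.

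The same list holds 3 genes similar to AT1G08570, a thioredoxin of the atypical Cys-His-rich class (ACHT4) in Arabidopsis, and 3 similar to AT2G40900, a transporter of the EamA-like family. At 8 DAF the thioredoxin genes had log2 fold changes of -2.69 to -2.31 in CpFatB4 and -2.10 to -1.82 in CpFatB5 against Youngsan, and the transporter genes had -2.41 to -2.36 and -1.86 to -1.84. A pair of genes without an Arabidopsis match, BnaC09g16520D and BnaA04g06320D, had identical counts in all columns. Each shared its counts with 5 genes of the whole table, the other of the pair among them. Both had 9277 normalized counts in CpFatB4 and 12925 in CpFatB5, against 1943 in Youngsan. At 25 DAF all of these were within 2-fold of Youngsan except that pair in CpFatB5, with 969 against 2616.

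**Figure D4:**
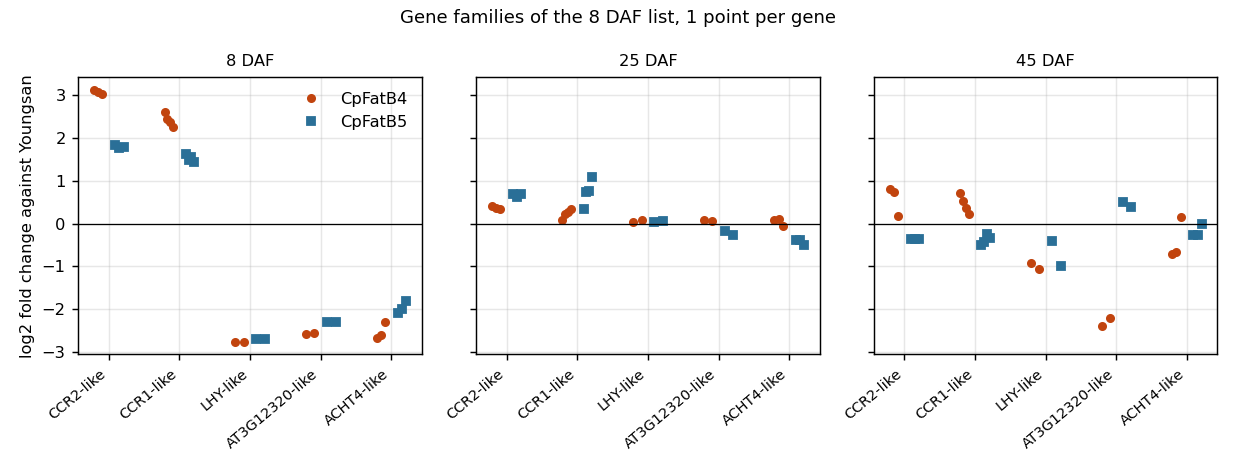
Log2 fold changes of CpFatB4 and of CpFatB5 against Youngsan at 8, 25 and 45 DAF for 5 gene families of the study's 8 DAF list, 1 point per gene. The CCR2-like and CCR1-like points are above 0 and the other families below it at 8 DAF, where the genes were chosen, and most points are near 0 at 25 DAF.

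The 6081 genes with a mean of at least 1000 normalized counts over the 9 libraries were ranked by the Pearson correlation of their log2 counts with the mean of the CCR2-like genes. BnaC08g49360D came first with 0.9987, and BnaA01g05410D, a CCR1-like gene, followed with 0.989. The others among the first 10 were the CCR1-like genes BnaC01g00280D and BnaC03g60490D and the genes BnaC03g56240D, BnaA06g17710D, BnaC07g30590D, BnaC09g00410D, BnaA09g01260D and BnaC02g31440D, with 0.971 to 0.983. Annotations of these 6 genes were not used here. The step from 8 to 25 DAF is common to all libraries and raises such values for any gene that shares it. The CCR1-like genes were also chosen on 8 DAF libraries that enter these correlations.

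With the mean of each stage removed, 976 genes other than the CCR2-like genes varied between lines by an SD of at least 0.5. The 5 most like the CCR2-like genes were BnaC08g49360D (0.995) and all 4 CCR1-like genes, BnaC03g60490D (0.992), BnaA01g05410D (0.991), BnaA08g16610D (0.985) and BnaC01g00280D (0.966). The deviations of the CCR2-like genes behind these values were largest at 8 DAF, with 1.45 in CpFatB4 and 0.18 in CpFatB5, against -1.63 in Youngsan. The correlations therefore mostly describe the 8 DAF libraries. The CCR1-like genes, and the list entry that BnaC08g49360D matches, were chosen on the CpFatB4 and Youngsan libraries of that stage. Their high places were thus largely set by that choice and are not independent evidence.

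At the other end were BnaC04g51120D (-0.920), BnaA04g29550D (-0.919), BnaC09g39140D (-0.910), BnaA06g10360D (-0.903) and BnaC05g11950D (-0.898). BnaC09g39140D had 908 normalized counts in CpFatB4 at 8 DAF and 1211 in CpFatB5, against 3323 in Youngsan. BnaC04g51120D was a gene of the last stage, with 4655 normalized counts in CpFatB4 and 13620 in CpFatB5 at 45 DAF, against 11436 in Youngsan. At 8 DAF it had only 11.2 in CpFatB4 and 19.8 in CpFatB5, against 60.5 in Youngsan. All 5 were lowest of the 3 lines in CpFatB4 at 8 and at 45 DAF, where the CCR2-like genes were highest. They were picked for the lowest correlations, so this opposite order was largely set by that choice.

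**Figure D5:**
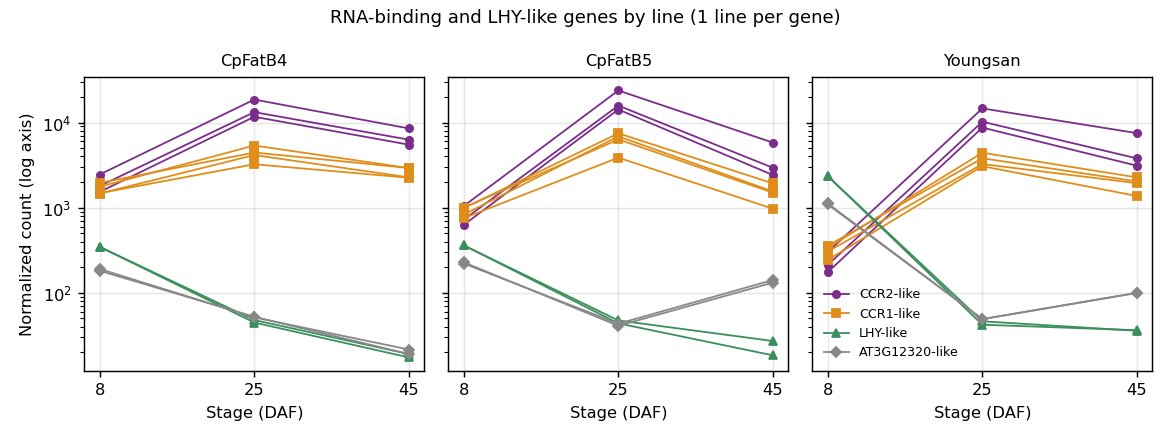
Normalized counts (log axis) of the CCR2-like, CCR1-like, LHY-like and AT3G12320-like genes against the stage in DAF, in 1 panel each for CpFatB4, CpFatB5 and Youngsan, with 1 line per gene. In Youngsan at 8 DAF the LHY-like genes are at 2352 and the CCR2-like genes at 175 to 301, and in CpFatB4 and CpFatB5 at 8 DAF the CCR2-like genes are above the LHY-like genes.

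The pods held seed tissue at the later stages, as the storage protein genes showed. The Napin gene BnaC01g43250D had 99.4 normalized counts in CpFatB4 at 8 DAF and 159 in CpFatB5, against 179 in Youngsan. All 3 Napin and both Cruciferin genes rose at 25 against 8 DAF (limma, adjusted p between 2.54e-05 and 5.77e-05). At 45 DAF BnaC01g43250D had 944030 in CpFatB4 and 40101 in CpFatB5, against 92884 in Youngsan. The part of seed storage transcripts in the 45 DAF differences of the CCR2-like genes was not tested.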

How the data were processed

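RNA-Seq counts of 9 pod libraries were used. Per the study's methods, the authors trimmed reads with SolexaQA, mapped them with Bowtie2 2.1.0 (version per the submitters' processing notes) to B. napus coding sequences of Genoscope with up to 2 mismatches, and counted reads per gene, and the counter and the treatment of multiply matching reads are not given in the sources used here. The deposited table holds 18 raw count columns, 2 per library, whose lowest value is 1, taken as 1 added by the authors and left in place. The 2 columns are not explained and were treated as repeat measurements of a library. The table also holds 13 columns that the authors normalized, which were not used.

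Size factors were medians of ratios over all columns. Differences between single libraries carry exact binomial 95% intervals, which cover counting error only. No value fell under the floor of 3 counts in the genes named with a fold. Stage effects were tested with limma 3.58.1 (voom, empirical Bayes, TMM scaling with trims of 30 and 5 percent written in Python) on summed counts of genes with the equivalent of 10 counts in at least 3 libraries, with the line as a block and Benjamini-Hochberg adjustment at 0.05. Tested on simulated data, where 200 of 73906 genes changed 4-fold at 25 against 8 DAF, it recovered 181 and called 4 others. The simulation gave all genes the same spread, had no line effects and changed abundant genes only. A far larger share of genes changed in the real data, so these rates need not hold there. Python 3.11.15 and R 4.3.3 were used.

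The genes and lists were chosen with earlier results of these data known. Genes are named by a fixed rule. It takes the CCR2-like genes, the genes of the study's 8 DAF list with a complete identifier, the 10 genes most alike over the libraries, the 5 most and 5 least alike in deviations from the stage mean, and 3 Napin and 2 Cruciferin genes. BnaC08g49360D was also singled out for its incomplete identifier in that list. Clock genes beyond the list could not be looked up with the reference table in use, of another assembly. Alternatives were other readings of the minimum for DEGs (chosen after seeing the data), total count, TMM or abundant-gene scaling, single columns, subtraction of the added 1, no filter, no block, limma-trend, and leaving out each line.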

Additional observations from a re-analysis of the deposited data

Results flagged for a closer look

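The CCR2-like genes differed between lines in opposite directions at different stages, for all 3 genes each time. Between CpFatB5 and Youngsan their median log2 fold change was 1.80 at 8 DAF, 0.70 at 25 DAF and -0.37 at 45 DAF, so that 45 DAF minus 8 DAF was -2.17 and 45 DAF minus 25 DAF was -1.07. Between CpFatB5 and CpFatB4 it was -1.29 at 8 DAF, 0.28 at 25 DAF and -1.10 at 45 DAF, so that 25 DAF minus 8 DAF was 1.57 and 45 DAF minus 25 DAF was -1.38. Each line and stage is 1 library, and these differences were not tested. The negative sign of CpFatB5 against Youngsan at 45 DAF was lost with size factors from abundant genes, where the median was 0.10. For CpFatB5 against CpFatB4 at 45 DAF, total count scaling gave a median of -0.56 and left BnaAnng35580D at -0.01.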

How the results depend on the processing

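The median log2 fold change of the CCR2-like genes at 8 DAF kept its size under 6 alternatives, between 3.02 and 3.12 in CpFatB4 against Youngsan and between 1.70 and 1.84 in CpFatB5 against Youngsan. The stage effect at 25 against 8 DAF passed for all 3 genes under every alternative run, and its median was between 3.76 and 5.09 with 1 line left out. The stage effect at 45 against 25 DAF had a median of -1.65 and passed for 2 of 3 genes. It passed for all 3 under total count scaling (-1.93, largest adjusted p = 0.0225). With 1 line left out its median was between -1.94 and -1.24. It passed for 0 of 3 with no block for the line (-1.64, largest adjusted p = 0.0956). The cause was not tested. At 45 DAF the scaling set the sign of small differences between lines, as given beside them. The fall from 25 to 45 DAF in CpFatB4 was short of 2-fold with abundant-gene scaling and with the added 1 subtracted. Other readings of the minimum of 1000, added after the values were seen, changed which CCR2-like genes were called in both comparisons with Youngsan at 8 DAF and in none of the other 13 line and stage comparisons. A minimum of 200 in place of 1000 normalized counts tested more genes and so called more, for example 498 against 129 genes higher in CpFatB4 than Youngsan at 8 DAF and 45 against 9 genes lower in CpFatB5 than CpFatB4 at 8 DAF. Precision is limited by the single library per line and stage and, at 8 DAF in Youngsan, by the low counts.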
